A study of Mus musculus with 21 samples.

Results

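Basal cell carcinoma (BCC) was compared with the matching controls in one mouse model, called Gnas-eKO in the labels. The comparison used the 4 libraries labelled Gnas-eKO_BCC and the 3 labelled Gnas-eKO_Con, which are 7 of the 21 RNA sequencing libraries of the series. The labels put each library in its group. Both groups were keratinocytes from tail skin of mice, both belong to the batch labelled B, and the labels give 42 days after tumour induction for this model. The labels do not give the alleles, the Cre driver, the inducing agent or the age of either group, and they do not say what the control mice carry or which Gnas exons were deleted. They also do not say whether each library is a separate animal. The column names of the 7 libraries each carry a different code, whose meaning is not given. P-values below therefore set a difference against the spread between these libraries, which may in part be technical. The libraries are named control 1 to 3 and tumour 1 to 4 after the numbers in their titles.

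Gnas encodes the alpha subunit of the stimulatory G protein, which switches on adenylyl cyclase. The cAMP made by that enzyme activates protein kinase A, and protein kinase A phosphorylates GLI proteins so that they are processed into repressors. Hedgehog ligands work in the opposite direction: they bind Patched, release Smoothened, and allow GLI proteins to activate Gli1, Ptch1 and Hhip. BCC is a skin tumour of this pathway, and its cells resemble those of the embryonic hair follicle placode and germ. Tail epidermis also has a scale compartment between the follicles, whose cells make hard keratins of the kind found in hair.

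Gnas itself was lower in every tumour library than in every control library. Its level was 177, 174 and 171 CPM (read counts scaled to the size of each library) in controls 1 to 3, and 117, 89.6, 51.4 and 65.8 CPM in tumours 1 to 4. The controls lay close together, the groups did not overlap, and the tumours were spread, with tumour 1 highest and tumour 3 lowest. The mean was 174 ± 3.22 CPM (SD, n = 3) against 80.8 ± 28.5 CPM (SD, n = 4), 2.15-fold lower (log2 -1.11 ± 0.25, SE). This difference missed the threshold of 0.05 in edgeR's robust quasi-likelihood test over all genes (adjusted p = 0.0647) and passed it without tumour 2 (-1.16, adjusted p = 0.0345). Over the alternative edgeR, DESeq2 and limma fits with all 7 libraries, its adjusted p ran from 0.00156 to 0.0993. Gnas lies on chr2:174284320-174346744, plus strand, of the mouse build GRCm38. Its exons overlap those of Gm20721 and of the antisense gene Nespas, and a count over the whole gene also takes reads from exons that a deletion leaves in place. In these bulk samples, fewer cells with the transcript and less transcript per cell cannot be told apart.

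Of 16409 genes tested, edgeR called 267 (1.63%) at an adjusted p under 0.05. Of these, 240 were higher in the tumours (1.46%) and 27 were lower (0.165%), and 235 changed at least 2-fold. In all 267 the tumour and control values did not overlap, which also holds for 19.5% of all genes tested. The call depended on which libraries entered. Before adjustment, 3212 genes (19.6%) had a p under 0.05, of which 2008 were higher (12.2%) and 1204 lower (7.34%). Without tumour 2, edgeR called 1910 genes (11.8%), of which 1192 were higher (7.36%) and 718 lower (4.43%); 266 of the 267 were among them. Without control 1 or control 2 it called 0, with 2215 and 2085 genes at an unadjusted p under 0.05, and without control 3 it called 4. Leaving out tumour 1 gave 38 calls, tumour 4 gave 59 and tumour 3 gave 291. DESeq2's Wald test called 1540 genes with all libraries, including all 267, and 716 to 2740 with 1 library left out. DESeq2's calls were 8.32% of the 18513 genes it tested, 1135 higher (6.13%) and 405 lower (2.19%). Every one of the 267 kept its direction in each of these edgeR and DESeq2 fits in which it was tested. Counts of list members given next are edgeR's with all 7 libraries unless another fit is named. They stand beside the shares of all genes given above. Of edgeR's fits with 1 library left out, that without tumour 2 is given for most lists. It called the most genes, so its larger counts are not separate support. In the least favourable of these fits, edgeR's adjusted p was 0.0763 for Gli2, 0.146 for Ptch1 and 0.148 for Mycn.

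**Figure D1:**
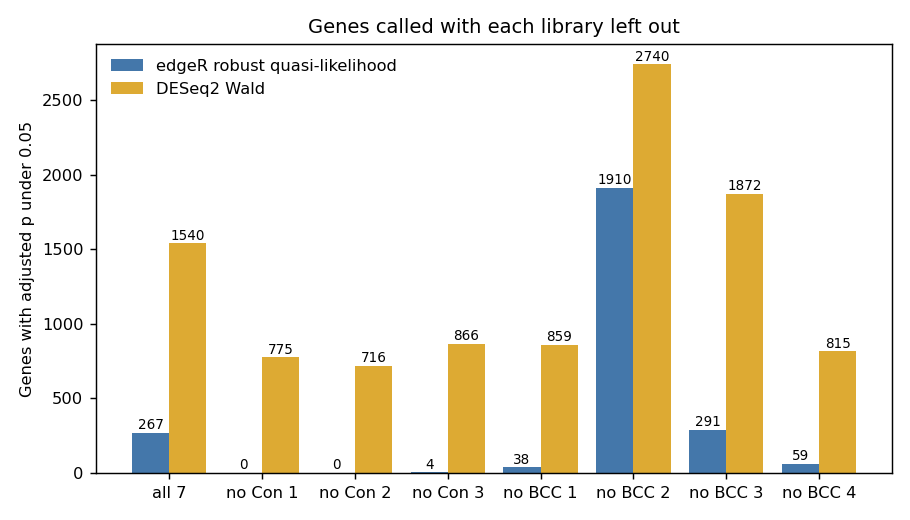
Bars give the number of genes with an adjusted p under 0.05 (vertical axis) with all 7 libraries and with each library left out, for edgeR and DESeq2. Both tools called most genes without tumour 2, where edgeR called 1910 and DESeq2 2740, and edgeR called 0 without control 1 or control 2.

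Tumour 2 stood apart from the other tumours. The labels do not give how much tumour tissue each library holds, so means over the 4 tumours and the spread among them may include differences in that share, which was not tested. On the first principal component of log2 CPM, with 51.5% of the variance, the controls lay between -56.9 and -36.5, tumours 1, 3 and 4 between 50.1 and 61.7, and tumour 2 at -20.7. The second component, with 18.8%, set tumour 3 at 59.2 apart from all others. Library totals ran from 18565825 to 20445507 counts and did not separate the groups. By Xist and Y-linked counts, controls 1 and 2 and tumours 1 and 2 were female, and control 3 and tumours 3 and 4 were male. With sex as a covariate edgeR called 106 genes, 103 of them among the 267.

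**Figure D2:**
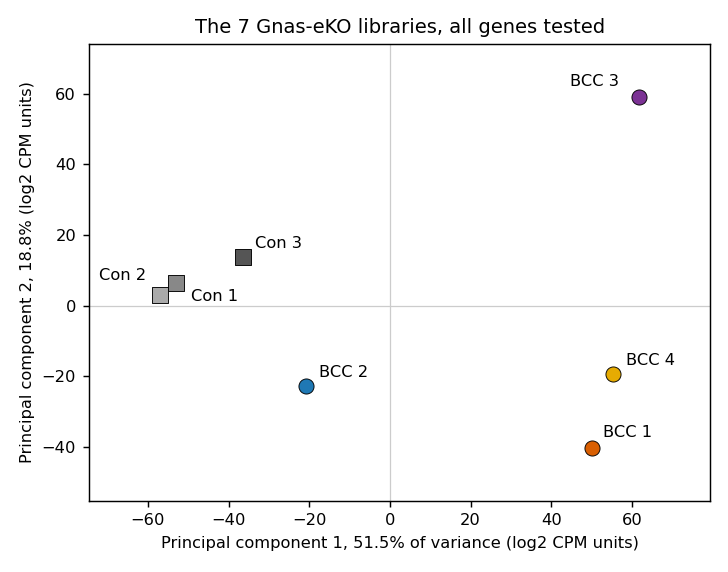
Each point is 1 library on the first and second principal components of log2 CPM over all genes tested, with controls as squares and tumours as circles. Tumour 2 lies on the control side of the first component, and tumour 3 stands alone on the second.

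Of 12 transcription factors of the Hedgehog pathway and their regulators tested, 4 rose and none fell, with a median log2 fold change of 0.63 beside 0.02 for all genes tested. Without tumour 2, 6 of the 12 rose, and DESeq2 called 5 higher and none lower with all libraries. Gli2, the main activating GLI factor in skin, was at 14.9, 17.4 and 21.3 CPM in the controls and 118, 90.1, 83.9 and 141 CPM in tumours 1 to 4. It was high in every tumour, tumour 2 included, and its groups were widely separated. The change was 6.07-fold (log2 2.60 ± 0.23 SE, edgeR adjusted p = 0.00699). Kif7, a motor protein that organises GLI at the tip of the cilium, rose 3.58-fold (edgeR adjusted p = 0.0326); its exons overlap those of Ticrr. Evc and Evc2, which form a complex at the base of the cilium, rose 1.95-fold and 1.91-fold (edgeR adjusted p = 0.0428 and 0.0475).

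Gli1 behaved otherwise, although it is a textbook readout of the pathway. It was at 5.52, 4.75 and 9.92 CPM in the controls and at 238, 9.66, 283 and 154 CPM in tumours 1 to 4. Tumours 1, 3 and 4 were far above every control, whereas tumour 2 fell within the control range. The fitted change, 4.67 ± 1.04 (SE) on the log2 scale, did not pass the test (edgeR adjusted p = 0.0715). Over the alternative edgeR, DESeq2 and limma fits with all 7 libraries, the adjusted p of Gli1 ran from 0.00012 to 0.287. Without tumour 2 the fitted change was 5.06, and edgeR's adjusted p was 0.000397. Gli1 shares exon sequence positions with Arhgap9, so reads there could belong to either gene. Sufu, which holds GLI proteins in the cytoplasm, differed by 0.31 on the log2 scale and did not pass (edgeR adjusted p = 0.19).

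Ptch1, which is both the Hedgehog receptor and a target, was far higher in the tumours. Of 11 ligands, receptors and co-receptors tested, 2 rose and none fell, and the median log2 fold change was 0.85. Without tumour 2, 5 of the 11 rose, and DESeq2 called 5 higher and none lower with all libraries. Ptch1 was at 30.0, 31.3 and 38.9 CPM in the controls and 944, 271, 317 and 830 CPM in tumours 1 to 4. Tumours 1 and 4 were about alike and high, and tumours 2 and 3 were about alike at a lower level, still far above the controls. The change was 17.7-fold (log2 4.14 ± 0.51 SE, edgeR adjusted p = 0.0172).

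Smo, the transducer released by Patched, was at 105, 113 and 107 CPM in the controls and 221, 174, 151 and 234 CPM in the tumours. All 4 tumours lay above all 3 controls, and the 1.80-fold difference came just short of the threshold (log2 0.85 ± 0.17 SE, edgeR adjusted p = 0.0503). Gpr161, a ciliary receptor coupled to the stimulatory G protein and a brake on the pathway, was at 36.0, 30.0 and 36.9 CPM against 62.9, 57.7, 48.8 and 77.9 CPM. Its groups did not overlap and its adjusted p was 0.0507 (edgeR). Smo and Gpr161 both passed without tumour 2, with edgeR adjusted p of 0.0178 and 0.0235. Hhip, which binds and sequesters Hedgehog ligands, was at 25.5, 18.5 and 1.88 CPM in the controls and 65.1, 18.7, 21.8 and 55.6 CPM in the tumours. The male control 3 was far below both female controls, the groups overlapped, and Hhip did not pass (log2 1.40, edgeR adjusted p = 0.358).

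Among 16 Hedgehog target genes tested, 6 rose and none fell, and the median log2 fold change was 2.05. Without tumour 2, 10 of the 16 rose, and DESeq2 called 12 higher and none lower with all libraries. Besides Gli2 and Ptch1, the risers included Mycn, Rasl11b and Hhipl1. Mycn, a growth-promoting transcription factor, went from 4.20, 5.65 and 6.36 CPM to 144, 33.2, 60.7 and 142 CPM (log2 4.14 ± 0.56 SE, edgeR adjusted p = 0.0206). As with Ptch1, tumours 1 and 4 were highest and tumours 2 and 3 lower, with no overlap with controls. Foxe1, a forkhead factor of the follicle, was at 0.559 to 0.961 CPM in the controls and 21.7, 0.912, 7.47 and 10.9 CPM in the tumours. Tumour 2 was again among the controls, as for Gli1, and Foxe1 did not pass (log2 3.74, edgeR adjusted p = 0.0803).

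**Figure D3:**
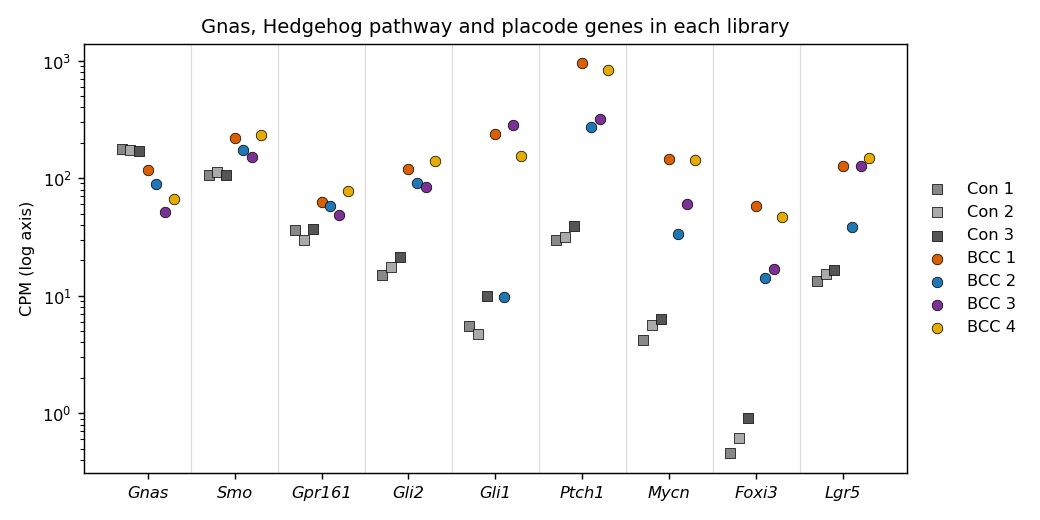
Level of 9 genes in each library in CPM on a log axis, with squares for controls and circles for tumours. Gnas was lower in all 4 tumours; Ptch1, Mycn and Foxi3 were higher in all 4; and Gli1 in tumour 2, at 9.66 CPM, lay within the controls.

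In the cAMP branch, no gene of the 9 protein kinase A subunits and inhibitors, the 13 adenylyl cyclases and phosphodiesterases or the 15 cAMP-CREB targets passed the test in edgeR, with median log2 fold changes of 0.06, 0.21 and 0.52. At an unadjusted p under 0.05 there were 2, 3 and 5 of them, beside 19.6% of all genes tested. DESeq2 called 1, 2 and 1, all higher, beside 6.13% called higher of all genes it tested. Without tumour 2 edgeR called 1 higher of 9 in the first list, 2 higher and 2 lower of 12 in the second, and 1 higher of 15 in the third. With so few calls over all genes (1.63%), the absence of calls in lists of this size is not a result about them. Adcy7, an adenylyl cyclase, was at 4.50, 5.25 and 3.71 CPM in the controls and 30.8, 6.06, 22.4 and 24.5 CPM in the tumours (log2 2.22, edgeR adjusted p = 0.063). Its tumour 2 value was barely above the controls, while the other tumours were clearly higher. Prkar1b, a regulatory subunit of protein kinase A, was higher in all 4 tumours, by 1.78 on the log2 scale (edgeR adjusted p = 0.0803). Without tumour 2 both passed edgeR, with adjusted p of 0.000584 and 0.0148. Sik1, a kinase gene induced by CREB, was at 167, 168 and 270 CPM against 109, 149, 68.2 and 129 CPM, with the tumours all lower (log2 -0.83, edgeR adjusted p = 0.154). Fos, another such gene, leaned the other way, with tumour 2 at 106 CPM inside the controls' 92.6 to 114 CPM and the other tumours at 180 to 241 CPM (log2 0.81, edgeR adjusted p = 0.129).

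Of 13 G protein alpha subunits tested, Gna15 was the single call of edgeR, and the median was -0.12. Without tumour 2 edgeR called 2 higher and 3 lower, and DESeq2 called 2 in each direction with all libraries. Gna15, a subunit of the Gq class, was at 33.4, 33.4 and 33.3 CPM in the controls and 20.2, 22.1, 17.4 and 20.5 CPM in the tumours. It fell in all 4 tumours to a similar level, 1.67-fold lower (log2 -0.74 ± 0.12 SE, edgeR adjusted p = 0.0308). Gna14, of the same class, was at 11.7, 13.2 and 21.1 CPM against 1.73, 13.4, 0.323 and 2.76 CPM. Tumours 1, 3 and 4 were far below the controls and tumour 2 was among them, and Gna14 passed edgeR without tumour 2 (log2 -3.23, adjusted p = 0.0128) but not with it (-1.76, adjusted p = 0.321). With all libraries it passed limma voom with sample quality weights (-2.39, adjusted p = 0.0245).

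The promoters of the rising genes were searched for binding motifs of both pathways, and the matches are printed since CREB is the factor that protein kinase A activates. The window was 250 bases before to 50 bases after each gene's start in RefSeq (GRCm38.p6), and 176 of the 240 rising genes had one. The GLI letters GACCACCCA, on either strand, were in 0 of the 176 windows and in 0.253% of the 11057 windows of all genes tested. The full CRE letters TGACGTCA, which read alike on both strands, were in 2 of the 176 windows (1.14%) and in 3.40% of all. Both are shown 5′ to 3′ with the CRE letters in capitals, from chr6:53287053-53287352 and chr9:44134408-44134707, plus strand.
Creb5: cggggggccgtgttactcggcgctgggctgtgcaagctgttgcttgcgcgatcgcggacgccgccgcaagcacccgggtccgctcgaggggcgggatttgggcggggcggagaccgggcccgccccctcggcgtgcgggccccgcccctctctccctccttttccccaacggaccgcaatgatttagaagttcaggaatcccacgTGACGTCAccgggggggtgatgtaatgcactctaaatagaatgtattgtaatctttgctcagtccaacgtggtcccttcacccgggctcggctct
Mcam: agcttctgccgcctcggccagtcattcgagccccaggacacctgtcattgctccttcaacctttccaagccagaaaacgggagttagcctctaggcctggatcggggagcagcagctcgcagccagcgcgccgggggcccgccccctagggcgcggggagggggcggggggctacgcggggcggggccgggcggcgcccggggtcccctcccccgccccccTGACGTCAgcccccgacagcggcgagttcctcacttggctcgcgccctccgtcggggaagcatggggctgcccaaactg
The letters begin 45 bases before the start in Creb5 and 29 bases before it in Mcam. A match is a string of letters and not a measured binding site.

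Creb5, a CREB family transcription factor, was at 28.1, 27.8 and 23.6 CPM in the controls and 116, 60.4, 80.6 and 112 CPM in tumours 1 to 4. Every tumour exceeded every control, with tumour 2 lowest (log2 1.80 ± 0.24 SE, edgeR adjusted p = 0.0202). Mcam, a cell adhesion molecule, was at 4.55, 3.80 and 5.14 CPM in the controls and 30.0, 8.75, 24.4 and 24.4 CPM in the tumours. Here too tumour 2 was lowest, close to the controls (log2 2.28 ± 0.40 SE, edgeR adjusted p = 0.0358). Both genes were named after their values were seen, because of the letters in their windows.

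Of 24 genes of the follicle placode and germ tested, 4 rose and none fell in edgeR, with a median log2 fold change of 0.91. Without tumour 2, 15 rose and 1 fell, and DESeq2 called 12 higher and 1 lower with all libraries. Foxi3, a forkhead factor of the placode, was nearly absent in the controls, at 0.455, 0.615 and 0.915 CPM, and was at 57.4, 14.0, 17.0 and 47.0 CPM in the tumours. It had tumours 1 and 4 high and tumours 2 and 3 lower, the order seen for Ptch1, and rose 50.7-fold (log2 5.66 ± 0.67 SE, edgeR adjusted p = 0.0143). Lgr5, a receptor that marks follicle stem cells, went from 13.4, 15.3 and 16.7 CPM to 128, 38.2, 126 and 149 CPM (log2 2.87, edgeR adjusted p = 0.0263). In Lgr5 the other 3 tumours were alike and tumour 2 lay well below them. Sostdc1, a secreted Wnt and BMP antagonist, rose 2.47-fold (edgeR adjusted p = 0.0466), with tumour 3 highest at 429 CPM. Sox4, a transcription factor of follicle development, rose 5.29-fold (edgeR adjusted p = 0.0489). Lhx2, which marks the hair germ, was at 34.6 to 41.5 CPM in the controls and 375, 80.9, 128 and 286 CPM in the tumours, and missed the threshold (edgeR adjusted p = 0.051).

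Of 24 genes of later follicle lineages and of the inner root sheath, none passed edgeR, and the median was 0.18. At an unadjusted p under 0.05, 6 were higher and 3 lower, beside 12.2% and 7.34% of all genes tested. DESeq2 called 2, beside 8.32% of all genes it tested. With 1.63% of all genes called by edgeR, the absence of calls in a list of this size is not a result about it. Without tumour 2, 5 rose and 4 fell of 23 tested. Krt17, a keratin of the outer root sheath that is also induced on wounding, was at 1426, 1063 and 941 CPM against 3678, 1732, 3940 and 4390 CPM, with no overlap (log2 1.59, edgeR adjusted p = 0.0579). Runx1, a factor of follicle stem cells, was at 19.9 to 24.4 CPM in the controls and 84.5, 28.9, 77.4 and 74.3 CPM in the tumours (log2 1.59, edgeR adjusted p = 0.0566). For both genes, tumour 2 was nearest to the controls. Foxn1 and Foxq1, which act in hair shaft differentiation, had tumour 2 at 69.9 and 125 CPM within the control range, while tumours 1, 3 and 4 were lower, at 14.3 to 18.1 and 16.6 to 44.6 CPM. They passed edgeR without tumour 2 (log2 -2.14 and -2.17), and did not with it.

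In the Wnt list, 4 of 34 genes rose and none fell in edgeR, and the median was 0.15. Without tumour 2 edgeR called 8 higher and 7 lower, and DESeq2 called 7 higher and 5 lower with all libraries. The risers were Lgr5 and 3 others: Wnt7b, Wnt6 and Fzd3. Wnt7b, an epidermal Wnt ligand, was at 57.4, 50.2 and 51.9 CPM in the controls and 117, 181, 115 and 199 CPM in the tumours (log2 1.53 ± 0.22 SE, edgeR adjusted p = 0.0233). Tumour 2 came second to tumour 4 for Wnt7b, unlike in most rising genes. Wnt6, another ligand, rose 4.78-fold, and Fzd3, a Wnt receptor, rose 2.43-fold (edgeR adjusted p = 0.0302 and 0.0484). Wnt3a was lower in all 4 tumours but did not pass (log2 -1.29, edgeR adjusted p = 0.145).

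Of 24 BMP and TGF-beta genes 2 rose, Sostdc1 and Tgfb3, with a list median of 0.24, and 5 rose and 1 fell without tumour 2. Tgfb3, a TGF-beta ligand, went from 11.1, 8.83 and 10.3 CPM to 112, 25.9, 71.9 and 92.4 CPM (log2 2.91 ± 0.45 SE, edgeR adjusted p = 0.0296). Fst, which traps activins and BMPs, was at 27.2 to 33.6 CPM in the controls and 133, 40.9, 245 and 139 CPM in the tumours, with no overlap (edgeR adjusted p = 0.0647). Among 14 Notch genes, Hey1, a Notch target factor, rose from under 1 CPM to 2.20 to 4.36 CPM (edgeR adjusted p = 0.0372). Among 14 YAP targets, Arhgef17 and Nt5e rose 3.91-fold and 2.34-fold (edgeR adjusted p = 0.0339 and 0.0403), with a list median of 0.48. Without tumour 2, 3 rose and 1 fell in each of these lists of 14.

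Of 29 collagen genes tested, which encode matrix proteins, 5 rose and 1 fell, with a median of 0.65. Without tumour 2, 12 rose and 3 fell. Col27a1, a fibrillar collagen, was at 1.06, 1.01 and 1.47 CPM in the controls and 136, 39.7, 46.7 and 119 CPM in the tumours. It rose 71.7-fold (log2 6.16 ± 0.59 SE, edgeR adjusted p = 0.00699), again with tumours 1 and 4 above tumours 2 and 3. Col14a1, a fibril-associated collagen, rose 39.2-fold and Col5a1 4.70-fold (edgeR adjusted p = 0.0339 and 0.00699). Col4a1 and Col4a2, the basement membrane collagen chains, rose 16.3-fold and 11.0-fold (edgeR adjusted p = 0.0262 and 0.0302); these neighbours share exon positions in the annotation. Col16a1 fell 1.73-fold (log2 -0.79, edgeR adjusted p = 0.0315).

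Markers of fibroblasts, the cells of the dermis, moved with these genes, although the epidermis had been scraped off the dermis, per the labels' protocols. The summed level of 12 fibroblast markers was 770 to 772 CPM in the controls and 1695 to 2111 CPM in the tumours. In the controls the sum was mostly Postn and Thy1. In tumour 2 it was mostly Postn (991 CPM) and Dcn (570 CPM), with Col1a2 at 3.17 CPM and Lum at 0.268 CPM. The sum is therefore not a measure of the share of fibroblasts. Of 11 tested, 2 rose, Postn and Dcn, and the median was 2.32. Without tumour 2, 8 rose and 1 fell, and DESeq2 gave the same counts with all libraries. Postn, a matricellular protein that makes up most of the sum, was at 581 to 605 CPM against 991 to 1918 CPM (edgeR adjusted p = 0.0384). Dcn, a small proteoglycan, was at 14.0, 11.1 and 19.2 CPM against 112, 570, 56.6 and 251 CPM (edgeR adjusted p = 0.0485). Over the alternative edgeR, DESeq2 and limma fits with all 7 libraries, its adjusted p ran from 4.95e-05 to 0.282, so the call was not kept in all of them. Dcn was highest in tumour 2, the reverse of most rising genes. Col1a1, a fibrillar collagen that defines fibroblasts, was at 1.62 to 2.07 CPM in the controls and 29.3, 2.58, 12.2 and 12.3 CPM in the tumours. The groups did not overlap, and Col1a1 passed edgeR without tumour 2 (log2 3.32, adjusted p = 0.00275) and DESeq2 with all libraries (2.97, adjusted p = 3.72e-05) but not edgeR with all libraries (2.98, adjusted p = 0.0748). Pdgfra was below 1.3 CPM in all 7 libraries. Thy1 ran the other way, at 128 to 135 CPM in the controls and 22.8 to 96.7 CPM in the tumours. The part of fibroblast RNA in the collagen changes was not tested.

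Markers of other cells differed widely in level. The sum of 21 leukocyte markers was 165 to 225 CPM in the controls and 498, 228, 235 and 171 CPM in tumours 1 to 4, and the sum of 5 red blood cell genes was 277 CPM in tumour 1 against 15.2 to 75.1 CPM elsewhere. Tumour 1 was highest in both sums. The keratinocyte markers, 10 genes led by Krt5 and Krt14, summed to 49014 to 50693 CPM in the controls and 25497, 44192, 23802 and 29903 CPM in the tumours, so the labelled cell type was present in all 7. Endothelial markers, of which Egfl7 rose as 1 of 5 tested, summed to at most 12.4 CPM and muscle markers to at most 2.90 CPM in any library. The 10 Langerhans cell genes summed to 265 to 343 CPM in the controls and 368 to 898 CPM in the tumours. Without Epcam, which keratinocytes also express, the other 9 Langerhans genes summed to 159 to 222 CPM and 185 to 531 CPM, which overlapped. The 9 Merkel cell genes summed to 4.14 to 15.1 CPM in all 7, and sebocyte genes to 2960 to 5106 CPM. Most of the sebocyte sum was Scd1, at 1996 to 3988 CPM. Melanocyte markers summed to 325 to 407 CPM in the controls and 172 to 322 CPM in the tumours, a sum that includes the falling gene Gpnmb. Without Gpnmb the other 10 summed to 137 to 206 CPM and 149 to 241 CPM, which overlapped.

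The following genes are among the 15 highest called changes with an average log2 CPM of at least 1. Prss35, a secreted protease-like protein, was at 1.27, 0.335 and 1.22 CPM in the controls and 99.5, 21.2, 34.6 and 146 CPM in the tumours (log2 6.30 ± 0.87 SE, edgeR adjusted p = 0.0216). Slc15a2, a peptide transporter, was at 0 to 0.405 CPM in the controls and 29.8, 6.28, 3.23 and 24.1 CPM in the tumours (log2 6.21 ± 1.10 SE, edgeR adjusted p = 0.0372). Both were highest in tumours 1 and 4. Cilp, a matrix protein of cartilage, rose to 63.2, 3.38, 14.9 and 31.2 CPM from under 0.6 CPM, and Vcan, a large proteoglycan, to 188, 22.1, 39.6 and 262 CPM from under 4.6 CPM (log2 6.11 and 5.41, edgeR adjusted p = 0.0372 and 0.0485). Cntfr, a cytokine receptor subunit, rose 41.4-fold, and Adgra2, an adhesion receptor that assists Wnt7 signalling, rose 44.4-fold (edgeR adjusted p = 0.0207 and 0.0389).

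By the same rule, Atp6v1b1, a subunit of the proton pump, went from 1.21, 1.73 and 3.10 CPM to 85.5, 27.3, 72.1 and 131 CPM, and Scnn1b, a subunit of the epithelial sodium channel, from 1.87, 1.29 and 2.49 CPM to 71.9, 21.7, 45.8 and 81.3 CPM. In both, tumour 4 was highest and tumour 2 lowest, and the groups did not overlap (log2 5.29 and 4.86, edgeR adjusted p = 0.013 and 0.00932). Pla2g3, a secreted phospholipase, Chst2, a sulfotransferase, and Cyyr1 rose by 4.94, 4.70 and 4.58 on the log2 scale (edgeR adjusted p = 0.03, 0.0329 and 0.0263). Among 35 axon guidance genes 2 rose, and without tumour 2, 8 rose and 4 fell. Nrp2, a semaphorin and VEGF co-receptor, rose 7.62-fold to 412, 101, 154 and 360 CPM, and Sema5a rose 2.74-fold (edgeR adjusted p = 0.0339 and 0.0345).

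Among the 27 falling genes, Gpnmb, a glycoprotein of lysosomes and melanosomes, was at 190, 188 and 201 CPM in the controls and 23.3, 81.0, 40.9 and 54.2 CPM in the tumours (log2 -1.95 ± 0.34 SE, edgeR adjusted p = 0.0372). Tumour 2 kept the most of it and tumour 1 the least, while defining melanocyte genes such as Dct did not pass. Igfbp2, an IGF-binding protein, fell from 71.2, 91.0 and 106 CPM to 22.2, 33.0, 31.3 and 15.4 CPM (log2 -1.81 ± 0.26 SE, edgeR adjusted p = 0.0233). Gypc, a glycoprotein of the membrane skeleton, fell 3.48-fold (edgeR adjusted p = 0.0263), with tumour 1 at 3.32 CPM below the other tumours at 7.15 to 7.73 CPM. Sox15, a transcription factor of epidermis and follicle, fell from 13.4, 15.2 and 14.1 CPM to 2.66, 6.22, 4.41 and 4.61 CPM (log2 -1.67, edgeR adjusted p = 0.0302).

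Selenbp2, a selenium-binding protein, had the lowest log2 fold change of all called genes above the level minimum (-4.15 ± 0.76 SE, edgeR adjusted p = 0.0422). Over the alternative edgeR, DESeq2 and limma fits with all 7 libraries, its adjusted p ran from 5.87e-08 to 0.253, so the call was not kept in all of them. Its controls were not alike, with 24.9 and 16.0 CPM in the female controls 1 and 2 and 1.73 CPM in the male control 3, whereas the tumours of both sexes were at 0.538 to 1.18 CPM. Nxph4, Fgf13, Them5, Suox, Dock5, Rab30, Ugt1a6a and Gm47547 fell by between 0.92 and 1.63 on the log2 scale, and none of them overlapped between the groups. Ugt1a6a shares exons with the other genes of the Ugt1a cluster, so its counts could be split among them, and Gm47547 is annotated as antisense, so its reads may belong to the gene on the other strand.

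Of 20 basal epidermis genes 1 fell, Sox15, with a median of -0.24. Without tumour 2 edgeR called 6 lower and 1 higher, and DESeq2 called 4 lower and 1 higher with all libraries. Krt14, the main basal keratin, was at 13624, 13886 and 15140 CPM in the controls and 3906, 11058, 4490 and 5392 CPM in the tumours, and Krt5, its partner, at 15985 to 17175 CPM against 7727, 15568, 7763 and 10854 CPM. All tumours lay below all controls for both keratins, tumour 2 only just, and neither passed (log2 -1.19 and -0.67, edgeR adjusted p = 0.132 and 0.268). Of 36 suprabasal and cornified envelope genes 1 fell, Tgm3, a transglutaminase of the cornified envelope, from 432, 433 and 493 CPM to 147, 291, 183 and 164 CPM (log2 -1.21, edgeR adjusted p = 0.0475). Without tumour 2, 6 of the 36 fell and 3 rose. Krt2, a keratin of the upper spinous layer, was at 14263 to 15938 CPM in the controls and 6920, 12470, 624 and 2617 CPM in the tumours. Krt2 ranged widely among the tumours and did not pass (log2 -1.39, edgeR adjusted p = 0.363).

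All 14 hard keratins of hair and tail scale tested had a negative log2 fold change, with a median of -2.11. In 12 of the 14 the groups overlapped. At least 8 were 2-fold or more higher in control 1 than in every other library. For these 8, controls 2 and 3 were nearer to the tumours. Without control 1 all 14 remained negative, and the median was -0.82. Of them 1 fell with all libraries and 5 without tumour 2. Krt84, which was not among the 8, was at 17551, 22753 and 10170 CPM in the controls and 330, 13182, 1.45 and 183 CPM in the tumours. Its partner Krt36, likewise not among them, was at 12134, 15391 and 7028 CPM against 336, 8444, 1.67 and 177 CPM. Tumour 2 held both within the control range, tumours 1 and 4 held little, and tumour 3 held almost none. With all libraries neither passed (log2 -2.30 and -2.36, edgeR adjusted p = 0.57 and 0.53), and without tumour 2 both did (log2 -6.61 and -6.07, edgeR adjusted p = 0.0311 and 0.0366). The member that fell was Krt90, at 8.40, 17.5 and 14.5 CPM against 2.48, 4.83, 1.18 and 1.75 CPM (log2 -2.39, edgeR adjusted p = 0.0475).

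All 14 stress keratins and alarmins tested had a positive log2 fold change, with a median of 1.76, yet none passed edgeR with all libraries. At an unadjusted p under 0.05 there were 10, DESeq2 called 7, and edgeR called 9 without tumour 2. The shares over all genes tested were 19.6%, 8.32% and 11.8%. Krt16, a keratin of wounded and hyperproliferative epidermis, was at 128, 89.2 and 106 CPM in the controls and 445, 170, 1265 and 608 CPM in the tumours (log2 2.53, edgeR adjusted p = 0.072). S100a8, an alarmin of keratinocytes and neutrophils, was at 19.8, 5.48 and 37.0 CPM against 91.3, 21.9, 898 and 225 CPM. Its partner S100a9 was at 29.1, 4.70 and 35.3 CPM against 105, 31.0, 1104 and 334 CPM (log2 3.89 and 4.09, edgeR adjusted p = 0.17 and 0.156). Tumour 3 was highest for all of these and tumour 2 lay within the controls for both alarmins. Il1f6, an IL-36 cytokine, followed the same order, at 1.37 to 2.34 CPM in the controls and 5.70, 1.45, 36.5 and 9.36 CPM in the tumours.

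**Figure D4:**
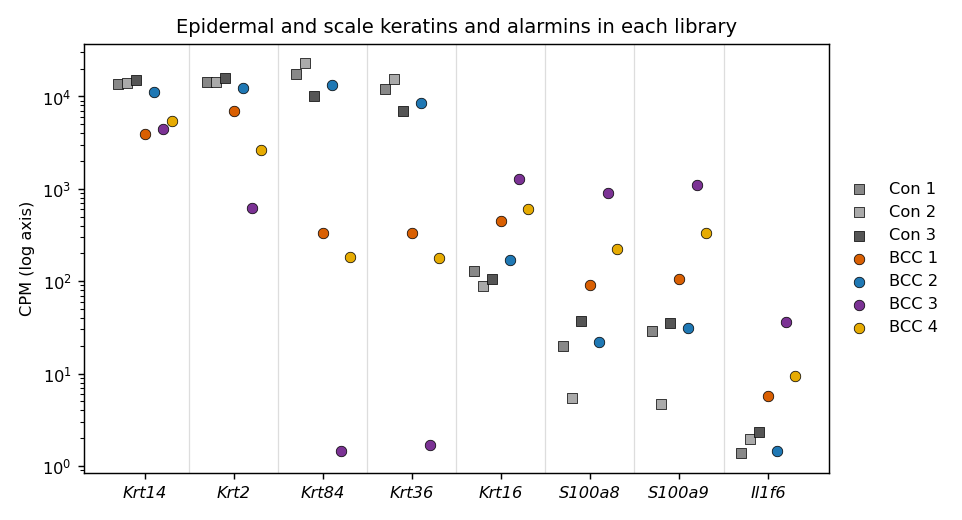
Level of 8 epidermal genes in each library in CPM on a log axis, with squares for controls and circles for tumours. Tumour 2 lay with or near the controls for the scale keratins Krt84 and Krt36 and for the alarmins, while tumour 3 was lowest in the scale keratins and highest in the alarmins.

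Of 32 proliferation genes tested, none passed edgeR in either direction, 31 had a negative log2 fold change, and the median was -0.35. At an unadjusted p under 0.05, 6 were lower and none higher, beside 7.34% and 12.2% of all genes tested, and DESeq2 called 1, lower. Rrm2, a subunit of the enzyme that makes DNA precursors, was at 61.8, 87.8 and 61.2 CPM in the controls and 40.6, 52.8, 35.5 and 35.4 CPM in the tumours, all lower (log2 -0.77, edgeR adjusted p = 0.0803). In this list tumour 3 had the lowest median difference from the controls, -0.60, and the other tumours lay at -0.25 to -0.28. Of 22 cell cycle and survival regulators, Mycn alone passed edgeR with all libraries, while DESeq2 called 4 higher and 1 lower, and edgeR without tumour 2 called 3 higher and 4 lower. Mycl, another Myc gene, was at 190 to 221 CPM in the controls and 62.5, 223, 62.6 and 68.9 CPM in the tumours, where tumour 2 equalled the controls and the other tumours agreed closely with each other. Of 31 FGF, EGF and IGF genes, 1 fell in edgeR, Igfbp2, and none rose, with 9 higher and 3 lower at an unadjusted p under 0.05. DESeq2 with all libraries and edgeR without tumour 2 each called 8 higher and 2 lower.

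**Figure D5:**
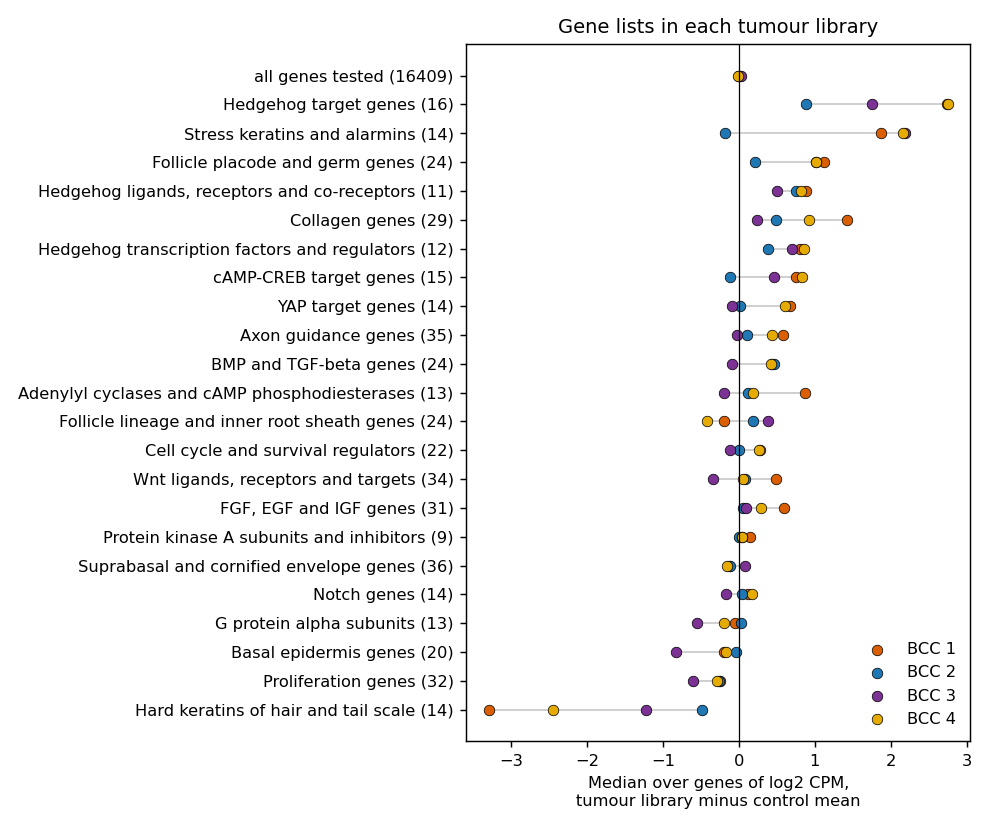
For each list (number of genes tested in parentheses), points give the median over its genes of the difference in log2 CPM between a tumour library and the control mean. Tumour 2 lies nearest to 0 for Hedgehog targets (0.89), placode genes (0.22) and hard keratins (-0.48), and on the other side of 0 from the rest for stress keratins and alarmins (-0.18).

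The spread among the tumours exceeded that among the controls across most of the transcriptome. The SD of log2 CPM was larger over the 4 tumours than over the 3 controls for 12919 of 16409 genes (78.7%), and for 237 of the 267 called genes. The median SD was 0.317 in the tumours and 0.152 in the controls. Correlation of log2 CPM ran from 0.974 to 0.984 between controls and from 0.933 to 0.976 between tumours, a description over genes within these libraries. Between a tumour and a control it ran from 0.920 to 0.975. Tumour 2 was at 0.972 to 0.975 with the controls and at 0.933 to 0.958 with the other tumours.

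The size of the tumour change was then placed library by library, each time on genes called from the other 6 libraries. Over the 1192 genes called higher without tumour 2, tumour 2 lay a median of 0.47 above the control mean on the log2 scale, where the other 3 tumours lay 1.49 above it. Over the 718 called lower, it lay at -0.22, beside -0.96. The genes were called on the other 3 tumours and the same controls, so that choice raises the difference of the others, and neither direction nor size in tumour 2 is independent of it. Tumour 3, judged on 255 genes called higher without it, lay 1.29 above the controls where the others lay 1.72 above, and over the 36 called lower it lay at -0.88 beside -0.80. Tumours 1 and 4 could be judged on 35 and 55 such genes, where they lay at 2.64 beside 2.63 and at 3.38 beside 2.58. Over the 3 and 4 genes called lower, they lay at -2.37 beside -1.57 and at -1.95 beside -4.08.

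Within the 240 rising genes, tumour 2 was the lowest of the 4 tumours in 179 and tumour 3 in 54, while tumour 4 was the highest in 125 and tumour 1 in 72. Tumour 3 had the most genes of its own: of 13336 genes with enough signal, 203 lay at least 2-fold above and 121 at least 2-fold below all other 6 libraries. For tumour 1 the same counts were 32 and 24, for tumour 4 they were 9 and 25, and for tumour 2 they were 5 and 4. Controls had 1 to 20 such genes above and 13 to 29 below.

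A further 10 genes were named for the widest range among tumours while steady in the controls. Aldh1a3, an enzyme that makes retinoic acid, was at 4.50, 2.68 and 4.58 CPM in the controls and 26.5, 4.19, 55.6 and 80.9 CPM in the tumours. It was high in tumours 1, 3 and 4 and within the control range in tumour 2 (edgeR adjusted p = 0.0882). Rbp2, a cellular retinol-binding protein, was at 9.51 to 11.2 CPM in the controls and 10.4, 3.06, 59.5 and 12.5 CPM in the tumours, so tumour 3 alone was high. Adh6b, an alcohol dehydrogenase, was at 35.9 to 58.1 CPM against 0.561, 18.9, 1.67 and 1.65 CPM.

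In 2310079G19Rik the controls were at 102 to 173 CPM, tumour 2 at 75.7 CPM and the other tumours at under 1 CPM, where 3 counts correspond to at most 0.168 CPM. Wfdc17, a secreted protease inhibitor-like protein, was at 486 to 694 CPM in the controls and 59.9, 384, 103 and 23.0 CPM in the tumours, and Mettl7a2 at 54.3 to 64.1 CPM against 3.41, 45.0, 3.17 and 6.98 CPM. In these, tumour 2 stayed nearer to the controls. Cstdc5, a stefin-like protease inhibitor, was at 1068 CPM in tumour 3 and 71.1 to 147 CPM in the other tumours, beside 137 to 190 CPM in the controls. Rnase2b was at 4.42 to 7.07 CPM in the controls and 20.0, 6.33, 82.4 and 18.8 CPM in tumours 1 to 4, so tumour 2 alone lay within the controls. Of the 10 genes of this rule, which also include Krt2, none passed edgeR with all 7 libraries, 5 had an unadjusted p under 0.05, and DESeq2 called 3. Without tumour 2 edgeR called 3 higher and 4 lower. These genes were chosen for a wide range among tumours, which itself works against passing with all libraries.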

How the data were processed

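Tail keratinocyte RNA went into a stranded polyA library, per the labels' protocols. The submitters' processing notes name bcl2fastq 2.20, cutadapt 1.18, STAR 2.7.0f, Partek and mm10; whether counting used strand is not given in the sources used here. The authors deposited estimated counts per gene without normalization (23713 genes, 32.9% of values in these libraries not whole), and a normalized signal table, from which an alternative was run. Estimated counts were rounded. Genes were filtered with filterByExpr, libraries scaled by TMM, and tumours tested against controls with edgeR 4.0.16 (robust quasi-likelihood, Benjamini-Hochberg, R 4.3.3). Log2 CPM use a prior count of 2. The SE is the size of the log2 fold change over the square root of F. Alternatives were DESeq2 1.42.0 and limma 3.58.1, the latter with sample quality weights or on the normalized signal plus 0.25. The scripts were tested on simulated data. The floor of 3 counts is 0.140 to 0.168 CPM, for counting error only. Every pair of libraries within a group differed by more than sampling noise (smallest chi-square over its degrees of freedom 11.3).

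The members, gene lists and naming rule were chosen with earlier results of these data known. The rule took Gnas, Smo, Gli1, Gli2, Ptch1 and Hhip; the 15 highest and 15 lowest called changes among genes without overlap whose log2 CPM averaged 1 or more; from each list its called members and up to 4 others with the largest change; and the 10 genes of the widest tumour range (average log2 CPM 3 or more, control range under 1). Not all are described, and some are not reported here. Of the list members, 12 had no gene of that name in the authors' counts and 5 matched through older symbols. Others were filtered out for low counts and not tested. For example, 24 adenylyl cyclases and cAMP phosphodiesterases were listed and 13 were tested. Exons of 27 of 98 named genes overlap another gene in GENCODE M21, so their counts could be shared. Coordinates are those of the files, with ends 1 base lower, and match GENCODE M21 (GRCm38) for 15918 of the 16409 genes.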

Additional observations from a re-analysis of the deposited data

Results flagged for a closer look

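Among 137 sets of 4 tumour values examined (named genes, library measures and list medians), 15 had 1 library set apart beyond Dixon's critical value, measured as its gap to the nearest other tumour over the whole tumour range; chance sets apart about 1 in 20 independent groups, but these sets share 4 libraries and many genes and were partly chosen for their spread, so the count cannot be read against that share. Tumour 2 was that library in 11 of the 15. For single genes on the log2 CPM scale, the gap of tumour 2 was 0.874 of the range for Lgr5, 0.880 for Runx1, 0.851 for Foxn1, 0.843 for Pla2g3, 0.877 for Cyyr1, 0.924 for Mycl, 0.839 for Rab30 and 0.830 for Mcam. For Gypc the library apart was tumour 1, with a gap of 0.908. For list medians, tumour 2 stood apart in placode and germ genes (0.883), stress keratins and alarmins (0.867) and keratinocyte markers (0.878). Tumour 3 stood apart in BMP and TGF-beta genes (0.924), suprabasal genes (0.832) and proliferation genes (0.892).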

How the results depend on the processing

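The number of calls was the least stable result, and the cause of its changes was not tested. Against 267 genes called, 240 higher, 27 lower and 235 changed at least 2-fold, DESeq2 called 1540, 1135, 405 and 988, and limma voom with sample quality weights 2842, 1657, 1185 and 1221. Voom weighted tumours 2 and 3 at 0.528 and 0.206, and the other libraries at 1.01 to 2.01. With sex as a covariate the counts were 106, 100, 6 and 101. The authors' normalized values gave 50 lower. With 1 library left out, edgeR's counts ran from 0 to 1910, 0 to 1192, 0 to 718 and 0 to 1221. DESeq2 called 716 to 2740 genes with 1 library left out, and voom 3733 without tumour 2; both were chosen after seeing the data. DESeq2's size factors, no filter and no robust estimation kept all 4 counts within 1.5 times.

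Same-numbered control and tumour libraries deviated together with r of 0.041 to 0.184 over 3 pairs, not above 0.1 in each, so the number was not taken to pair them. Each such pair was also of 1 sex, so the block carries sex as well. With the replicate number as a block, edgeR called 135 genes, 128 higher, 7 lower and 134 changed at least 2-fold; 105 were among the 267.

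Among the named genes, the sign changed in Rbp2 without tumour 3 and in Cstdc5 without tumour 3 and under voom (-0.40). With 1 library left out, Rbp2 ran from -0.26 to 1.40 and Cstdc5 from -0.55 to 1.40. List medians kept within 1 SD of the 4 tumour values under DESeq2's size factors and, in fits added after seeing the data, without tumour 2 or control 1, except that of the hard keratins without control 1 (-0.82, beside -2.62 without tumour 2). A prior count of 0.5 left the tumour positions in place; over all genes tested, in place of called ones, tumour 1 lay at -0.0016 and tumour 4 at -0.0077. Levels under 0.140 to 0.168 CPM, the worth of 3 counts, cannot be told from 0, which touches Slc15a2 in the controls, 2310079G19Rik in tumour 3 and Cyp2g1 in control 3, among others.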

Other observations

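Single libraries held genes that stood at least 2-fold clear of the other 6, and those given here were chosen after their values were seen. In tumour 3 the clade B serpins Serpinb3c and Serpinb3a, which inhibit proteases, were at 21.0 and 236 CPM, beside at most 2.46 and 54.7 CPM in any other library. Its Wif1, a secreted Wnt inhibitor, was at 53.2 CPM beside 3.69 to 11.7 CPM. Rad51b, a DNA repair gene, was at 18.4 CPM in tumour 3 and at 2.94 to 3.61 CPM in all 6 others, which hardly varied. Thbs2, a matricellular protein, was at 3.01 CPM in tumour 3 and 15.3 to 35.9 CPM elsewhere. In tumour 4, Arc and Ptgs2, a pair of genes that respond to stimulation, were at 66.7 and 34.2 CPM, beside at most 14.8 and 13.4 CPM. In tumour 1, Ccl22 and Ciita, a chemokine and the activator of MHC class II genes, were at 11.1 and 6.87 CPM, beside at most 3.95 and 2.63 CPM, in the library with the highest leukocyte and red blood cell sums.

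Controls held such genes too. Baiap2l1, an adaptor of the cytoskeleton, was at 30.6 CPM in control 2 and 261 to 634 CPM in the other 6 libraries. Kcnk1, a potassium channel, was at 18.5 CPM in control 3 and 2.46 to 4.17 CPM elsewhere. Cyp2g1, a cytochrome P450, was at 158 and 123 CPM in the female controls and 0.0509 CPM in the male control, below the 0.153 CPM that 3 counts are worth there, and at 78.3 and 65.0 CPM in the female tumours and 13.2 and 0.824 CPM in the male ones. Krt33a, a hair keratin, was at 54.7 CPM in control 1, 5.48 and 11.2 CPM in controls 2 and 3, and 1.03 to 9.93 CPM in the tumours. No cause was tested for any of these.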
